A study of Mus musculus with 22 samples.

Results

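All 22 bulk RNA sequencing libraries of the series, each from a different numbered mouse, entered a single comparison of 12 libraries labelled cKO with 10 labelled WT. They were taken by the names of their count columns, and no measured value chose them. The cKO mice, 6 females and 6 males, had floxed Smc3 and a Camk2a-cre/ERT2 transgene (Cre+). The WT mice, 5 females and 5 males, had floxed Smc3 and no Cre (Cre-). Mice of both groups were 8 weeks old per the labels, were given tamoxifen by mouth, and provided tissue 6 weeks afterwards. ERT2 is a receptor domain that keeps Cre inactive until tamoxifen binds it, and the Camk2a promoter is active in excitatory neurons of the forebrain. Other cells of the tissue would therefore keep Smc3. Because WT mice lack the transgene, effects of the transgene itself, of activated Cre and of losing Smc3 cannot be told apart for any gene. The counts came in a table per sex. The tables were joined by gene and fitted together with sex, which is also the table, as a block, so that the fold change is the average cKO minus WT effect over both sexes.

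SMC3 is a core subunit of cohesin, a ring-shaped protein complex that holds sister chromatids together in dividing cells and extrudes chromatin loops in dividing and resting cells alike. Loop extrusion tends to stop where the DNA-binding factor CTCF sits, and loops can bring an enhancer near a promoter. Neurons no longer divide, so cohesin is studied in them mainly for gene regulation. The clustered protocadherins are textbook examples of neuronal genes whose promoter choice depends on CTCF and cohesin.

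Total counts were 12771354 to 16896239 per library. Of 20565 genes, 16855 had enough counts to be tested. Sample titles name the hypothalamus and the tissue field names the prefrontal cortex. All 20 cortex markers averaged at least 10 CPM, with a median of 88.0 CPM. Of 13 hypothalamus markers in the tables none did, 7 were under 1 CPM and the median was 0.69 CPM. For these levels CPM are counts relative to the unscaled library total, and elsewhere relative to the scaled total. The first principal component of the 1000 most variable genes held 51.0% of their variance. Male cKO 8, female cKO 21 and female WT 25 stood apart in marker levels or on the leading components. Counts that move by over 1.5 times when one of them is left out are given with and without it. Male WT 3 (-46.3) and male WT 6 (-45.1) lay near male cKO 8 (-51.8) on the first component, farther out than female WT 25 (-27.8). Their mean log2 CPM of oligodendrocyte markers was low too (5.14 and 5.06, against 5.35 in male cKO 8). Neither was among the libraries left out together, a choice made after seeing the data.

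The targeted gene checks the labels. Smc3 had 122, 130 and 173 CPM (lowest, median and highest) in the 12 libraries labelled cKO, against 66.3, 75.2 and 95.1 CPM in the 10 WT libraries. Every library labelled cKO thus lay above every WT library. The gene total was higher, not lower, in cKO (log2 fold change 0.79, SE 0.06, edgeR adjusted p = 1.77e-08). Because a gene total includes reads outside the floxed exons, it does not show whether those were deleted, and directions are given as labelled.

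Averaged over both sexes, 1272 genes passed an edgeR adjusted p of 0.05, of which 452 rose and 820 fell in libraries labelled cKO. That is 7.55% of the genes tested, with 2.68% rising and 4.87% falling, and 3467 genes had an unadjusted p under 0.05. The same 16855 genes fitted in 1 sex at a time gave 556 calls in females (3.3%) and 89 in males (0.528%). Of these, 481 of the 556 female calls and all 89 male calls were also called with both sexes together, and 63 genes were called in all 3 fits. The cKO libraries lay entirely on the same side of the WT libraries in each sex for 130 genes (0.771% of those tested), 109 lower and 21 higher, and no gene lay on opposite sides in the 2 sexes. In bulk tissue, fewer cells of a type and less RNA per cell cannot be told apart.

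**Figure D1:**
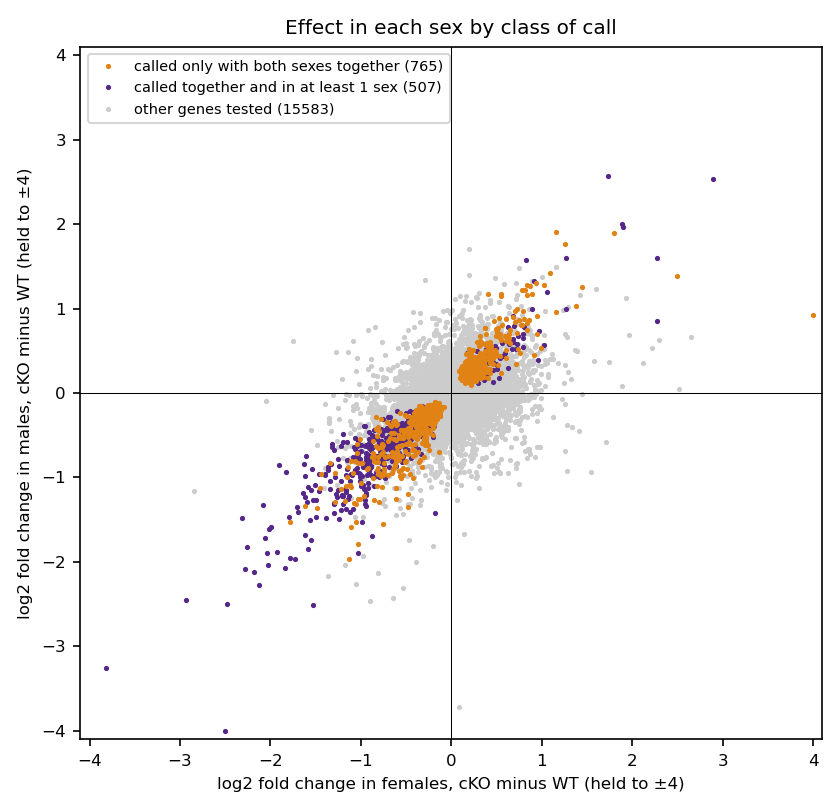
Each point is a gene tested, with its log2 fold change (cKO minus WT) in females on the horizontal axis and in males on the vertical axis, both held to ±4. The 765 genes called only with both sexes together (orange) lie nearer the centre than the 507 called together and in at least 1 sex (purple) and lie in the same 2 quadrants, higher in both sexes or lower in both.

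The largest fall among named genes was that of Dio3, an imprinted gene for the deiodinase that inactivates thyroid hormone. Dio3 had 0.138, 0.398 and 1.05 CPM (lowest, median and highest) in libraries labelled cKO, against 2.997, 5.402 and 7.42 CPM in WT libraries. No cKO library reached the lowest WT library, and the fold change was 11.5-fold down (log2 -3.53, SE 0.25, edgeR adjusted p = 5.09e-09). Ier5l, a relative of the immediate early gene Ier5, had 3.73, 5.61 and 9.13 CPM in cKO and 21.5, 33.6 and 44.3 CPM in WT, again with no overlap (log2 -2.49, SE 0.13, adjusted p = 2.78e-11). Col6a2, a chain of collagen VI, had the smallest p of the named genes, with 6.66 to 15.9 CPM in cKO and 39.4 to 65.1 CPM in WT (log2 -2.18, SE 0.11, adjusted p = 7.96e-12). The serotonin receptor gene Htr1a (log2 -2.20), the protocadherin Pcdha12 (log2 -2.15) and the somatostatin receptor Sstr1 (log2 -2.04) followed. Htr1a and Pcdha12 had no overlap between the groups, while 11 of 12 cKO libraries lay below the lowest WT library for Sstr1.

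Among the largest rises, Arsi, an arylsulfatase gene, had 2.31, 3.79 and 6.19 CPM in libraries labelled cKO, against 0.20, 0.667 and 1.06 CPM in WT libraries, with no overlap (log2 2.71, SE 0.23, edgeR adjusted p = 8.33e-08). Rgs13, a regulator of G protein signalling, had 1.16, 6.06 and 7.15 CPM in cKO and 0.466, 1.41 and 1.91 CPM in WT (log2 1.95, SE 0.31, adjusted p = 0.000294). Its cKO libraries were high apart from 2 that lay within the WT range. Ucma, a secreted matrix protein known from cartilage, rose by a log2 fold change of 1.93 (adjusted p = 0.00285).

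Ttr, Aspg and Blnk were the other large rises, and all 3 were called only with both sexes together. Ttr, the thyroid hormone carrier made by the choroid plexus, had 0.395, 2.08 and 526.5 CPM in cKO and 0, 0.807 and 6.06 CPM in WT, and the highest value was that of female cKO 21. With all libraries Ttr stood at 4.35 on the log2 scale (SE 1.28, edgeR adjusted p = 0.0380), and without female cKO 21 it stood at 1.04 and the call was lost (adjusted p = 0.215). The call was also lost without male WT 3 and without each of the 5 female WT libraries in turn, at log2 fold changes of 3.997 to 4.67. Ttr lost the call too with the mean level of oligodendrocyte markers as a covariate (edgeR adjusted p = 0.178) and as the mean of both sexes from a fit of 4 groups (0.092). Without male cKO 8, female cKO 21 and female WT 25 together it had an adjusted p of 0.117. Choroid plexus and ependymal markers as a list had a mean log2 CPM of 0.23 to 4.14 in cKO and -0.48 to 2.67 in WT, highest in female cKO 21, and their part in the Ttr result was not tested. Aspg, an asparaginase, had 1.48, 4.50 and 36.2 CPM in cKO and 1.60, 2.17 and 3.26 CPM in WT (log2 1.85, adjusted p = 0.0112). Blnk, an adaptor best known from B cells, had 3.69, 17.6 and 89.3 CPM in cKO and 5.14, 8.39 and 14.6 CPM in WT (log2 1.52, adjusted p = 0.0309), and lost the call without male WT 1, 3 or 6, female cKO 20 or 22, or female WT 16. With the same covariate Blnk lost the call as well (edgeR adjusted p = 0.102).

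Promoters of the 2 largest falls, of the largest rise, and of the leading rise and fall among genes called only with both sexes together are printed. Their transcripts carry these results. Only genes with an entry that may be shown were used, so that Plscr3 stands in place of Mc4r, the fall with the smallest p. Each window spans 300 bases around the start of the RefSeq gene, on the gene's strand, in build GRCm38.p6, and was matched by symbol. They were searched on both strands for the cAMP response element TGACGTCA and for AGGGGGC, a short core of the CTCF motif, with matches in capitals. The motifs do not overlap each other. Dio3 lies at chr12:110278980-110279279 on the plus strand, Ier5l at chr2:30474150-30474449 on the minus strand, Rgs13 at chr1:144177323-144177622 on the minus strand, Rab28 at chr5:41708130-41708429 on the minus strand and Plscr3 at chr11:69846394-69846693 on the plus strand.
Dio3: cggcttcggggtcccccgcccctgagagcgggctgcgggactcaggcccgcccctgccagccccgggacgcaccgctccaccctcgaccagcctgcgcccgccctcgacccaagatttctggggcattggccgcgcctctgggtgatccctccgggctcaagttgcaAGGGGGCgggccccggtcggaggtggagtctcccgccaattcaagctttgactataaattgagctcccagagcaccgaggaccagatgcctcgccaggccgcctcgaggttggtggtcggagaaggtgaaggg
Ier5l: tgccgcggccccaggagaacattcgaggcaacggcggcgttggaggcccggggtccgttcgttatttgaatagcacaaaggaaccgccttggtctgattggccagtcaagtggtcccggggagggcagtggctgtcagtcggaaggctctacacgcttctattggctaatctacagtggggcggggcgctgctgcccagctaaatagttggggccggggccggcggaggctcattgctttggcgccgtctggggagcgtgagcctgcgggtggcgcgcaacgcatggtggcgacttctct
Rgs13: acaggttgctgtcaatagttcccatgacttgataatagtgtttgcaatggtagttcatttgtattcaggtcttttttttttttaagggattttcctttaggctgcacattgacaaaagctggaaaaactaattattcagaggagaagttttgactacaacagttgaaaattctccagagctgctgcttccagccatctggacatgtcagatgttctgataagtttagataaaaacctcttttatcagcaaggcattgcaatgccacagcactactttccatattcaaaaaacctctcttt
Rab28: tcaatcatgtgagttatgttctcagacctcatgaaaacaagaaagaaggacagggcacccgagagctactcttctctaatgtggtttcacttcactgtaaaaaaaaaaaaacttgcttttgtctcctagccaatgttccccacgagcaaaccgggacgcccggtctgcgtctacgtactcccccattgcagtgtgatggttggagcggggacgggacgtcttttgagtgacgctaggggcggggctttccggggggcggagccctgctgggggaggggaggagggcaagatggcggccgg
Plscr3: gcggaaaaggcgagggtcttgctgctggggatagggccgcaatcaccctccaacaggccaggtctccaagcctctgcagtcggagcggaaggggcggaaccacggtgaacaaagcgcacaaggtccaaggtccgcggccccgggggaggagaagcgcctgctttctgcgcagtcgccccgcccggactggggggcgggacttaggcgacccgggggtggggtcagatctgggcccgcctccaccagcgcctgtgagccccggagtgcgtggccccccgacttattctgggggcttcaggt
Only the Dio3 window held a match, AGGGGGC, and none held the cAMP response element. Among 27025 promoters of the RefSeq table, 10.5% held AGGGGGC and 1.88% held the cAMP response element. The Dio3, Ier5l and Plscr3 windows are rich in CpG pairs (25, 26 and 24), Rab28 has 16 and Rgs13 has 0, against a median of 7 over the table.

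Joining the sexes added 765 genes that neither sex called alone, 4.54% of those tested and 60.1% of the 1272 calls. They made up 81.2% of the rises (367 genes, 2.18% of those tested) and 48.5% of the falls (398 genes, 2.36%). The other 507 calls were shared with at least 1 sex and consisted of 85 rises and 422 falls. The genes called only together changed less, which the way they were selected favours. Their median absolute log2 fold change was 0.32 (quartiles 0.23 and 0.54), against 0.65 (quartiles 0.43 and 0.92) for the shared calls and 0.11 over all genes tested. Changes under 1.2-fold made up 272 of the 765 genes and 23 of the 507. Changes past 2-fold numbered 44 and 107.

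The median level was 22.7 CPM for genes called only together, 28.4 CPM for shared calls and 19.1 CPM over all genes. Their error was smaller in the fit of 22 libraries. The median standard error of the 765 genes was 0.08 on the log2 scale together, 0.11 in females and 0.13 in males. Their median fold change, signed by the direction of the joint fit, was 0.30 in females and 0.34 in males. All 765 had the same sign in both sexes, which the way they were selected favours. Of them, 453 had an unadjusted p under 0.05 in both sexes, 180 in females alone and 132 in males alone. An edgeR adjusted p under 0.1 in at least 1 sex fitted alone was found for 199 of the 765. In the authors' deposited tables, 242 of the 765 were under an adjusted p of 0.05 in at least 1 sex, 169 in females and 96 in males, and 523 were in neither.

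**Figure D2:**
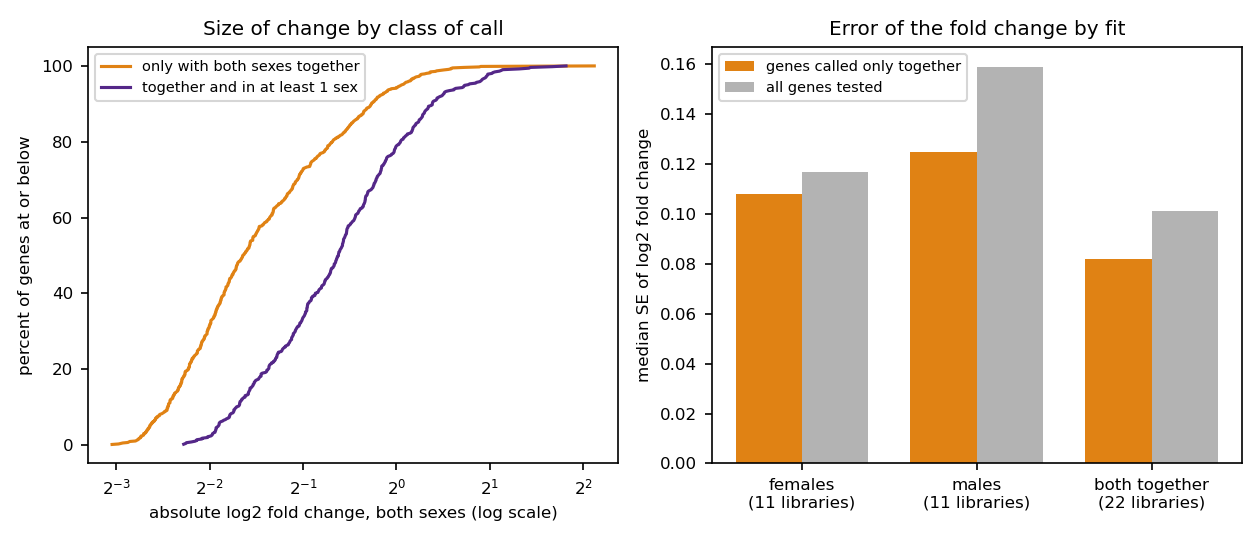
Left, the percent of genes at or below each absolute log2 fold change (horizontal axis, log scale) for the 765 genes called only with both sexes together (orange) and the 507 called together and in at least 1 sex (purple), with medians of 0.32 and 0.65. Right, bars give the median standard error of the log2 fold change in each fit for the 765 genes (orange, 0.11 in females, 0.13 in males and 0.08 together) and for all genes tested (grey, 0.12, 0.16 and 0.10).

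Among rises called only together, Rab28, a small GTPase linked to cilia, had the smallest p. Rab28 had 69.8, 73.8 and 78.7 CPM (lowest, median and highest) in libraries labelled cKO, against 60.7, 65.1 and 70.9 CPM in WT libraries. In each sex the groups did not overlap, although the change was only 1.14-fold (log2 0.19, SE 0.03, edgeR adjusted p = 0.00042). Acss2, the enzyme that makes acetyl-CoA from acetate in cytosol and nucleus, had 50.3, 57.5 and 70.4 CPM in cKO and 41.4, 46.9 and 54.8 CPM in WT (log2 0.35, SE 0.06, adjusted p = 0.000536). Gfap, the intermediate filament of astrocytes that marks their reactive state, had 189, 269.5 and 388 CPM in cKO and 88.2, 156 and 214 CPM in WT. The male groups did not overlap for Gfap, 11 of 12 cKO libraries exceeded the highest WT library, and the change was 1.84-fold (log2 0.88, SE 0.15, adjusted p = 0.000662). Gfap had adjusted p = 0.0685 in females and 0.0548 in males when each sex was fitted alone.

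The other rises of this class with the smallest p follow. Acot5, an acyl-CoA thioesterase, had 1.99, 2.70 and 4.96 CPM in libraries labelled cKO, against 0.735, 1.43 and 2.29 CPM in WT libraries (log2 1.01, SE 0.18, edgeR adjusted p = 0.000889). Grn, the gene of the lysosomal growth factor progranulin, had 65.0, 73.3 and 79.5 CPM in cKO and 53.3, 60.1 and 67.3 CPM in WT (log2 0.27, SE 0.05, adjusted p = 0.000968). Srxn1, sulfiredoxin, which restores oxidised peroxiredoxins, had 96.5, 126 and 201 CPM in cKO and 80.2, 87.9 and 106 CPM in WT (log2 0.59, SE 0.11, adjusted p = 0.00123). For Srxn1 the male groups did not overlap and a single female cKO library lay within the WT range. Sesn1, a stress-induced inhibitor of the kinase mTORC1 and a p53 target, rose by a log2 fold change of 0.23, and Efr3a, a membrane anchor of a lipid kinase complex, by 0.48. Trip4, a subunit of a transcription coactivator complex, rose by 0.24, Vcpkmt, which methylates the ATPase VCP, by 0.34, Acyp2, an acylphosphatase, by 0.40, and Gatb, a mitochondrial tRNA amidotransferase subunit, by 0.26. These 6 genes had edgeR adjusted p of 0.000776 to 0.0012. Fitted in females alone, they ran from 0.05103 (Trip4) to 0.1637 (Gatb), with Efr3a at 0.05132.

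Among falls called only together, Mc4r, the melanocortin receptor known for its part in feeding, led. Mc4r had 0.79, 1.80 and 3.33 CPM (lowest, median and highest) in libraries labelled cKO, against 2.33, 3.65 and 5.19 CPM in WT libraries. A single female cKO library reached the WT range (log2 -1.03, SE 0.18, edgeR adjusted p = 0.000648). Kcnk2, the background potassium channel TREK-1, had 35.2, 49.0 and 59.4 CPM in cKO and 54.4, 63.8 and 68.9 CPM in WT, with no overlap in either sex (log2 -0.37, SE 0.07, adjusted p = 0.00112). Elmo1, which with DOCK proteins activates the GTPase Rac, had 77.7, 91.9 and 114 CPM in cKO and 107, 114 and 122 CPM in WT (log2 -0.29, SE 0.05, adjusted p = 0.00117). The cell adhesion molecule Nectin1 had 27.3, 30.5 and 38.3 CPM in cKO and 34.1, 41.3 and 57.2 CPM in WT (log2 -0.45, SE 0.08, adjusted p = 0.00117), and 10 of 12 cKO libraries lay below all WT libraries. Fitted in females alone, Mc4r, Kcnk2 and Elmo1 had edgeR adjusted p of 0.05615, 0.05109 and 0.05051, just above the threshold. Nectin1 had 0.1123 in females and 0.05664 in males.

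The remaining leading falls of this class follow. Tpst2, which sulfates tyrosines of secreted proteins, had 18.1, 21.1 and 24.7 CPM in libraries labelled cKO, against 23.99, 25.97 and 28.5 CPM in WT libraries, so that 11 of 12 lay below the WT range (log2 -0.30, SE 0.05, edgeR adjusted p = 0.000934). Papln, an extracellular matrix protein, had 1.92, 3.32 and 6.93 CPM in cKO and 3.20, 7.05 and 11.3 CPM in WT (log2 -1.09, SE 0.20, adjusted p = 0.00122). Pik3r5, a regulatory subunit of a phosphoinositide kinase, fell by 0.84 on the log2 scale, and Mypn, a protein known from the muscle sarcomere, by 0.75. Adcy7, an adenylyl cyclase, fell by 0.45, Rnf144a, a ubiquitin ligase, by 0.38, Plscr3, a phospholipid scramblase, by 0.34, and Klf16, a zinc finger transcription factor, by 0.27. These 6 genes had edgeR adjusted p of 0.000697 to 0.00122, and each gene named from Rab28 to Klf16 kept its call with every library left out in turn. Fitted in females alone, the falls from Tpst2 to Klf16 ran from 0.05018 (Plscr3) to 0.1642 (Klf16) in edgeR adjusted p, with Papln at 0.05202.

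**Figure D3:**
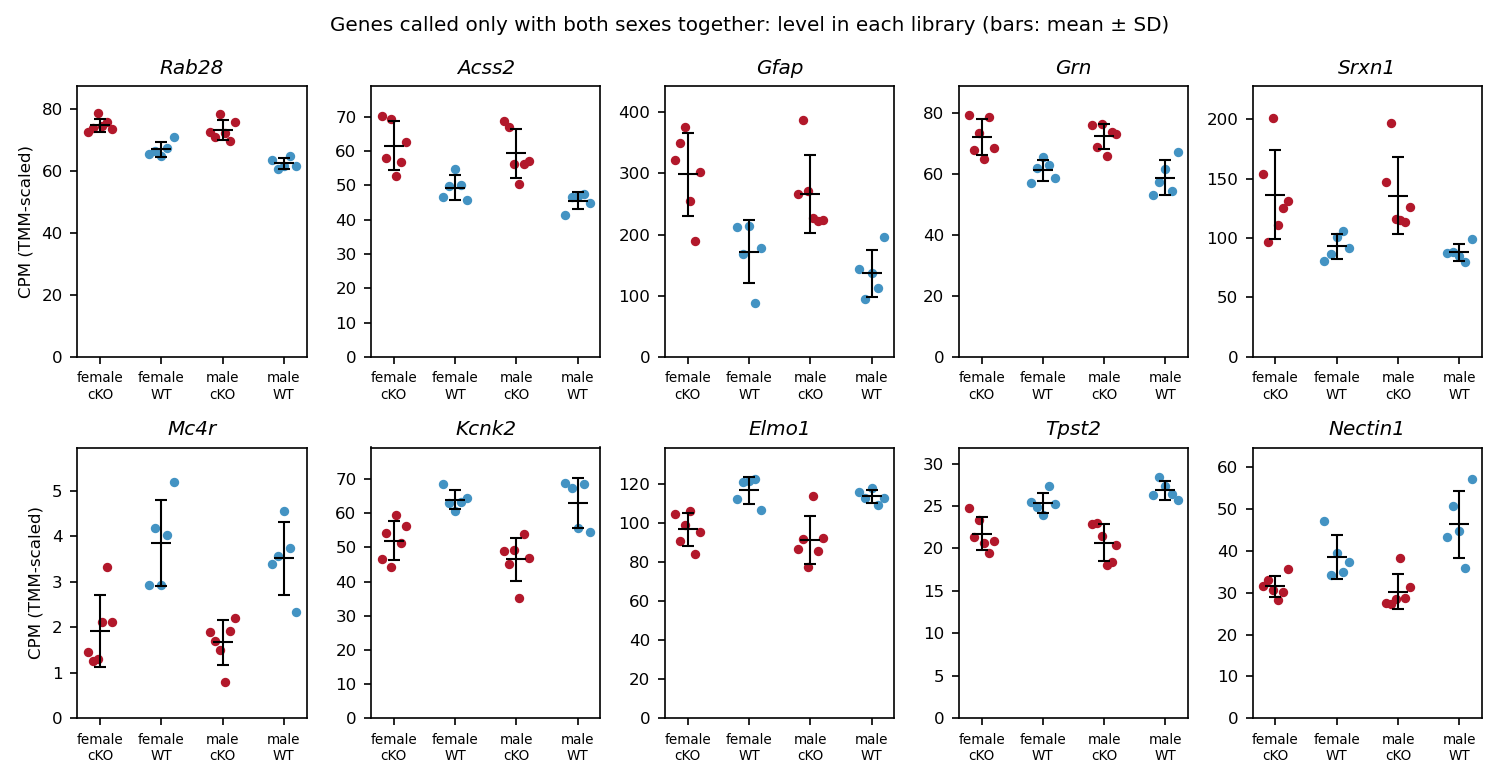
Level in CPM (vertical axis, from 0) of 5 rises (top) and 5 falls (bottom) called only with both sexes together, with a point per library, female cKO, female WT, male cKO and male WT from left to right, and bars for mean ± SD. In Rab28 the cKO points lie between 69.8 and 78.7 CPM and the WT points between 60.7 and 70.9 CPM, and in Kcnk2 the cKO points of each sex lie below the WT points of that sex.

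Genes called only together were selected for missing the threshold in each sex, which favours overlap of the groups. Of the 765 genes, 9 had no overlap in both sexes (1.18%, 3 higher and 6 lower), 181 had none in a single sex and 575 overlapped in both. Of the 507 shared calls, 121 (23.9%) had no overlap in both sexes. When the sexes were joined, 75 female calls and no male call were lost. The leading ones were Wnt5a, a Wnt ligand, Hs3st4, a heparan sulfate sulfotransferase, Usp46, a deubiquitinase, and Sst, the peptide somatostatin of interneurons. Wnt5a had log2 fold changes of -1.01 in females and -0.36 in males, and -0.68 together (edgeR adjusted p = 0.00172, 0.914 and 0.101). Sst had -0.64 in females, -0.22 in males and -0.43 together (adjusted p = 0.0086, 0.945 and 0.195). Male cKO 8 had 31.4 CPM of Wnt5a, against 5.75 to 14.5 CPM in the other male cKO libraries. For Sst it had 34.75 CPM, against 129.7 to 188.1 CPM. With a library left out, the joint log2 fold change ran from -0.934 to -0.606 for Wnt5a and from -0.5 to -0.339 for Sst. The part of male cKO 8 in the male values was not tested.

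The difference between the sexes was tested directly. No gene passed (0%) in edgeR or in DESeq2, 176 genes had an unadjusted p under 0.05 in edgeR (1.04%) and 175 in DESeq2, and the smallest edgeR p was 0.00102 (adjusted p = 1). That smallest p belonged to Esrrb, a nuclear receptor gene, with log2 fold changes of -1.15 in females and 0.49 in males at 0.345 to 1.15 CPM in cKO libraries and 0.229 to 1.79 CPM in WT libraries. The other 4 smallest belonged to Spdya, a cell cycle regulator, and to Gm15884, Gm17193 and Gm10710, also near 1 CPM or below. Of the 765 genes called only together, 1 had an unadjusted p of the difference under 0.05, and of all 1272 calls 13 did. For Wnt5a and Sst the fits of single sexes therefore do not show that the effect differs between the sexes. Evenly spread p-values would put about 5% of genes under 0.05, more than the 1.04% found in edgeR. The lack of calls thus does not show equal effects in the 2 sexes either.

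Receptors for peptides and monoamines were among the lists with the largest share of falls. Of 31 neuropeptide receptors tested, 12 fell and 19 did not pass, with a median log2 fold change of -0.55, beside 7.55% called and a median of 0.007 over all genes. Sstr2 had 1.65, 6.84 and 8.72 CPM in libraries labelled cKO, against 14.5, 25.3 and 34.2 CPM in WT libraries, with no overlap (log2 -1.91, edgeR adjusted p = 4e-07). The neuropeptide Y receptor Npy1r fell by 1.43 on the log2 scale (adjusted p = 0.00034). Mc4r was called only together, as were the cholecystokinin receptor Cckbr (29.3, 51.9 and 63.3 CPM in cKO, 42.7, 93.4 and 119 CPM in WT, log2 -0.82), the vasopressin receptor Avpr1a (log2 -1.50) and the melanin-concentrating hormone receptor Mchr1 (log2 -0.26). Avpr1a, at a median of 0.819 CPM in cKO and 1.73 CPM in WT, kept its call in 20 of 22 fits with a library left out, and Mchr1 in 21.

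Of 25 monoamine receptors, 8 fell and 17 did not pass (median log2 -0.38). Each of the 8 was also called in at least 1 sex alone. The adrenergic receptor Adra2c had 3.96, 7.46 and 12.5 CPM in libraries labelled cKO, against 14.2, 19.6 and 23.6 CPM in WT libraries, with no overlap (log2 -1.31, edgeR adjusted p = 5.1e-06), and Adrb3 fell by 0.89. Of 24 glutamate receptors, 6 fell and 18 did not pass (median log2 -0.26, and 10 fell without male cKO 8). The fit of females called 8 of them. The AMPA receptor subunit Gria2 had 654, 708 and 786 CPM in cKO and 832, 911 and 986 CPM in WT, so that a change of only 1.27-fold left no overlap (log2 -0.34, SE 0.04, adjusted p = 1.05e-05). Gria3 fell by 0.70 and the kainate receptor Grik4 by 0.70. Of 16 GABA receptors, 4 fell and 12 did not pass (median log2 -0.28). Gabrd, the subunit of extrasynaptic receptors, was called only together (17.9, 28.1 and 45.3 CPM in cKO, 29.0, 47.9 and 61.3 CPM in WT, log2 -0.64, adjusted p = 0.0145), and Gabrg3 fell by 0.62.

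Most ion channel genes did not pass. Of 56 potassium channel genes, 11 fell, 2 rose and 43 did not pass (median log2 -0.13). The voltage-gated subunits Kcnh1, Kcng1 and Kcnh4 fell by 0.89, 0.91 and 0.89 on the log2 scale. Both rises were called only together. Kcnj10, the inward rectifier of astrocytes, had 148, 199 and 289.7 CPM in libraries labelled cKO, against 101, 147 and 196 CPM in WT libraries (log2 0.41, edgeR adjusted p = 0.028). Kcnip3, a calcium-binding channel partner, had a log2 fold change of 0.46 (adjusted p = 0.027). Kcnj10 kept its call in 19 and Kcnip3 in 20 of 22 fits with a library left out. Of 32 sodium and calcium channel genes, Scn3b (log2 -0.37), Cacna1h (-0.43) and Scn8a (-0.23, called only together and in 20 of 22 fits with a library left out) fell and 29 did not pass (median log2 -0.07, and 5 called without male cKO 8). That is 9.38% of the list, near the 7.55% over all genes.

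Synaptic proteins were counted in 3 lists, in which most members did not pass. Of 42 synaptic adhesion genes, 11 fell and 31 did not pass (median log2 -0.16). Lrrtm4, a postsynaptic organiser, had 10.5, 15.2 and 16.2 CPM in libraries labelled cKO, against 19.7, 22.02 and 30.8 CPM in WT libraries, with no overlap (log2 -0.67, edgeR adjusted p = 1.78e-05), and Flrt3 and Cntn4 fell by 0.69 and 0.76. Flrt2 (log2 -0.46, adjusted p = 0.0147) was called only together with Nlgn2, Nlgn3 and Ptprf. The neuroligins bind presynaptic neurexins, and Nlgn2, which sits at inhibitory synapses, had the smallest absolute change of all calls, at 262, 279 and 299 CPM in cKO and 278, 305 and 329 CPM in WT (log2 -0.12, SE 0.04, adjusted p = 0.0387). Nlgn2, Nlgn3 and Ptprf kept the call in 7, 15 and 17 of 22 fits with a library left out.

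Of 29 postsynaptic scaffold genes, 4 fell and 25 did not pass (median log2 -0.06, and 7 called without male WT 1). Shank1, a large scaffold of excitatory synapses, was called only together at 314, 358 and 452 CPM in libraries labelled cKO, against 317, 458 and 616 CPM in WT libraries (log2 -0.34, edgeR adjusted p = 0.0157), and the groups overlapped widely. Cnksr2 and Ddn fell by 0.98 and 0.61. Of 40 genes of transmitter release, 5 fell and 35 did not pass (median log2 -0.11, and 8 called without male cKO 12, male WT 1 or male WT 5). The calcium sensor Syt7 was called only together, at 325, 380 and 422 CPM in cKO and 376, 470 and 507 CPM in WT (log2 -0.27, SE 0.05, adjusted p = 0.00213), as was Doc2b (log2 -0.71, adjusted p = 0.00807). Syt1, the main sensor of fast release, fell by 0.51 and Rab3b by 0.69.

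The clustered protocadherins, adhesion proteins that give neurons individual surface identities, had lower estimates in 18 of 21 gamma, 21 of 21 beta and 10 of 11 alpha genes. Of 21 gamma cluster genes tested, 10 fell and 11 did not pass (median log2 -0.71), of 21 beta cluster genes 6 fell and 15 did not pass (median -0.39), and of 11 alpha cluster genes 3 fell and 8 did not pass (median -0.77). The fit of females called 7 gamma, 9 beta and 2 alpha cluster genes. Pcdha12, in the alpha cluster, had 0.611, 1.21 and 2.30 CPM in libraries labelled cKO, against 2.52, 5.61 and 9.65 CPM in WT libraries (log2 -2.15, SE 0.24, edgeR adjusted p = 4.51e-06). Pcdhga12 fell by 1.15 and Pcdhb22 by 0.81. Called only together were Pcdha10 (0.233, 0.815 and 1.93 CPM in cKO, 0.999, 2.27 and 3.95 CPM in WT, log2 -1.34, adjusted p = 0.0032), Pcdhac1, Pcdhb13, Pcdhga5, Pcdhga11, Pcdhgb4 and Pcdhgb8, with log2 fold changes of -0.92, -0.69, -0.86, -0.70, -0.76 and -0.69. Of these, Pcdhac1, Pcdhga5 and Pcdhgb8 kept the call in 20, 9 and 21 of 22 fits with a library left out, and the others in all 22.

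Members of the alpha cluster end in common exons, as do those of the gamma cluster, so their single counts are uncertain. Without male cKO 8 the counts of falls were 5 in the alpha, 14 in the beta and 17 in the gamma cluster, and without male WT 5 that of the alpha cluster was 6. Of 32 other cadherins, Cdh22 (log2 -0.85), Pcdh19 (-0.46) and Pcdh8 (-0.42, called only together and in 7 of 22 fits with a library left out) fell and 29 did not pass (median -0.19, and 7 called without male cKO 8). The share called, 9.38%, was near the 7.55% over all genes, and the fit of females called 4.

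Guidance cues and secreted signals were mostly lower where they passed. Of 65 axon guidance genes, 10 fell and 55 did not pass (median log2 -0.16, and 18 called without male cKO 8). Plxnd1, a semaphorin receptor, had 13.7, 21.4 and 27.8 CPM in libraries labelled cKO, against 46.2, 63.5 and 109 CPM in WT libraries, with no overlap (log2 -1.65, edgeR adjusted p = 3.77e-08), and Efna5 and Plxna1 fell by 0.58 and 0.47. Falls called only together were those of the semaphorins Sema5a (log2 -0.54, adjusted p = 0.0145) and Sema5b (log2 -0.32, adjusted p = 0.00261) and the netrin receptors Unc5c and Unc5d (log2 -0.31 and -0.54, adjusted p = 0.0336 and 0.0273, kept in 15 and 18 of 22 fits with a library left out).

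Of 43 genes of the Wnt pathway, 7 fell, 2 rose and 34 did not pass (median log2 -0.14), and 11 fell and 3 rose without male cKO 8, female cKO 21 and female WT 25. The ligand Wnt7b had 11.7, 17.4 and 22.4 CPM in libraries labelled cKO, against 32.8, 44.8 and 84.6 CPM in WT libraries, with no overlap (log2 -1.45, edgeR adjusted p = 3.77e-08), and the receptor Fzd8 and Dkkl1 fell by 0.86 and 1.71. Wnt10a was called only together and rose, at 3.14, 8.65 and 19.8 CPM in cKO and 1.60, 3.54 and 7.74 CPM in WT (log2 1.12, adjusted p = 0.0177). Of 43 genes of the BMP and TGF-beta pathway, 10 fell, 1 rose and 32 did not pass (median log2 -0.09). The proteases and binding proteins Bmp1 and Fstl4 fell by 1.05 and 1.31, and the target Id2 by 0.86. Called only together were the ligands Bmp2, at 1.37, 2.32 and 4.28 CPM in cKO and 2.99, 5.17 and 7.10 CPM in WT (log2 -0.94, adjusted p = 0.00151), Tgfb2 (log2 -0.35) and Bmp4 (log2 0.69, called in 11 of 22 fits with a library left out).

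Of 41 growth factor genes and receptors, 4 fell and 37 did not pass (median log2 -0.09, and 8 called without male cKO 8). These calls made up 9.76% of the list, near the 7.55% over all genes. Igfbp4, which binds insulin-like growth factors, fell by 1.12 on the log2 scale with no overlap (edgeR adjusted p = 5.44e-07), Gfra2 by 0.63 and Vegfc by 0.65, and the GDNF receptor kinase Ret was called only together (log2 -1.28, adjusted p = 0.0228, kept in 20 of 22 fits with a library left out). Of 44 genes of collagens and matrix, 5 fell, 3 rose and 36 did not pass (median log2 -0.004). Col12a1 had 6.87, 10.8 and 20.8 CPM in libraries labelled cKO, against 26.95, 42.97 and 58.3 CPM in WT libraries (log2 -1.81), and Hapln4, of perineuronal nets, rose by 0.94. Col1a1 and Col3a1 were called only together and rose by 0.68 and 1.15 (adjusted p = 0.0262 and 0.00961, the first kept in 19 of 22 fits with a library left out), and Col19a1 fell by 0.75 (adjusted p = 0.00393). Of 18 RGS proteins, Rgs13 rose, Rgs6 and Rgs14 fell by 0.89 and 0.64, and 15 did not pass (median log2 -0.07, and 5 called without male WT 1).

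The circadian clock list had the second largest share of calls, 9 of 19 members (47.4%), in both directions. The activator Npas2 had 19.8, 23.6 and 31.9 CPM in libraries labelled cKO, against 34.4, 39.4 and 49.9 CPM in WT libraries, with no overlap (log2 -0.73, edgeR adjusted p = 4.41e-06). The repressor Nr1d1 fell by 0.41, and the repressors Per3 and Cry1 rose by 0.26 and 0.29. Called only together were Per2 (36.6, 42.8 and 68.0 CPM in cKO, 31.2, 37.7 and 40.2 CPM in WT, log2 0.33, adjusted p = 0.0369), Nfil3 (log2 0.53), Bhlhe41 (log2 0.24), Bhlhe40 (log2 -0.54) and Ciart (log2 -0.41). Cry1, Per2, Bhlhe40 and Ciart kept the call in 13, 13, 13 and 9 of 22 fits with a library left out, and the other 5 in all 22. The 5 rises and 4 falls had a median of -0.02 over the list. The count was 5 without female WT 18, and 3 rises and 2 falls were left without male cKO 8, female cKO 21 and female WT 25. The hour of sampling is not given in the sources used here, and its part in the result was not tested.

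Of 40 activity-induced genes, 5 fell, 1 rose and 34 did not pass (median log2 -0.25, and 12 called without female cKO 24). Arc, an immediate early gene of synaptic plasticity, was called only together at 65.7, 80.2 and 180 CPM in libraries labelled cKO, against 47.2, 233 and 373 CPM in WT libraries, and the cKO values lay within the WT range (log2 -1.12, SE 0.30, edgeR adjusted p = 0.0209). Crem, a cAMP-responsive regulator, was called only together and rose by 0.36 (adjusted p = 0.03, kept in 14 of 22 fits with a library left out). Dusp4 and Sik1 fell by 1.02 and 0.79. Of 36 imprinted genes, 4 fell, 3 rose and 29 did not pass (median log2 -0.03, and 12 called without male cKO 8). Besides Dio3, the cell cycle inhibitor Cdkn1c fell by 1.65 with no overlap and Plagl1 by 0.51. Called only together were Nnat (90.5, 148 and 235 CPM in cKO, 130.2, 248 and 404 CPM in WT, log2 -0.70, adjusted p = 0.0165), Inpp5f (log2 0.29) and Nap1l5 (log2 0.29, kept in 5 of 22 fits with a library left out).

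Other subunits and regulators of cohesin and related complexes mostly had higher estimates. Of 22 tested, 4 rose, 1 fell and 17 did not pass (median log2 0.08, 17 of 22 higher). The cohesin subunit Stag1 had 57.9, 64.3 and 79.0 CPM in libraries labelled cKO, against 48.3, 53.2 and 62.0 CPM in WT libraries (log2 0.28, SE 0.05, edgeR adjusted p = 0.000896). Its alternative Stag2 was called only together, at 69.1, 81.0 and 112 CPM in cKO and 59.0, 68.3 and 77.4 CPM in WT (log2 0.26, SE 0.07, adjusted p = 0.0257). Smc6, of a related complex, was also called only together, at 52.7, 57.6 and 68.4 CPM in cKO and 45.9, 51.3 and 54.1 CPM in WT (log2 0.20, SE 0.04, adjusted p = 0.00574). Hdac8, the SMC3 deacetylase, rose by 0.33 and the regulator Pds5b fell by 0.49. Of 39 chromatin corepressors and histone enzymes, Rcor2 rose by 0.74, Smarca2 fell by 0.36, Kdm6a was called only together at -0.31 (in 6 of 22 fits with a library left out) and 36 did not pass (median log2 -0.002). The share of this list called, 7.69%, was near the 7.55% over all genes.

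Stress and immune lists followed. The share called was 24% for p53 and DNA damage targets and 10.3% for interferon-stimulated genes, against 7.55% over all genes. It was 5.56% for antigen presentation, 5.26% for glucocorticoid response and 3.45% for unfolded protein and heat shock, each below that of all genes. Of 25 p53 and DNA damage targets, Sesn1, Ccng1 and Aen rose, all called only together (log2 0.23, 0.24 and 0.15, kept in 22, 19 and 11 of 22 fits with a library left out), Plk2, Trp53i11 and Sesn2 fell (log2 -1.31, -0.63 and -0.44), and 19 did not pass (median log2 -0.009). Of 29 unfolded protein and heat shock genes, Pdia4 rose, called only together (log2 0.22, edgeR adjusted p = 0.00701), and 28 did not pass (median log2 0.08, with 3 called without male cKO 8 and 2 without male cKO 13, female cKO 22 or female WT 26). All 29 interferon-stimulated genes tested had a higher estimate in cKO (median log2 0.27), of which Ifitm1, Ifitm3 and Ifit3b passed and 26 did not. Ifitm3 was called only together, at 9.88, 14.4 and 20.2 CPM in libraries labelled cKO, against 6.72, 10.4 and 12.98 CPM in WT libraries (log2 0.59, adjusted p = 0.00518), as was Ifit3b (log2 0.51). Of 18 antigen presentation genes, Cd74 rose (log2 0.79) and 17 did not pass (median log2 0.18, and 2 called without female WT 19, when 5 interferon-stimulated genes were). Of 19 glucocorticoid response genes, Hsd11b1, which regenerates active glucocorticoid, rose (log2 0.72) and 18 did not pass (median -0.09, with 4 called without male WT 5 or female WT 26, 3 without male WT 1 or female cKO 24, and 2 without male cKO 8, male WT 6, female cKO 20 or female WT 16).

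Of 25 glycolytic genes, 4 rose, 1 fell and 20 did not pass (median log2 0.11). Pfkfb3, which makes the activator of phosphofructokinase, had 30.3, 39.1 and 65.6 CPM in libraries labelled cKO, against 24.2, 25.8 and 30.6 CPM in WT libraries (log2 0.67, edgeR adjusted p = 1.38e-05). The glucose transporter Slc2a1 (log2 0.32, adjusted p = 0.0207), Pgk1 (log2 0.27, adjusted p = 0.0218), Gpi1 (log2 0.18, adjusted p = 0.0443) and Eno2 (log2 -0.15, adjusted p = 0.0364) were called only together. Gpi1 and Eno2 kept the call in 6 and 9 of 22 fits with a library left out. The count of the list was 3 without male WT 4 or 6, female cKO 20, 24 or 27, or female WT 18 or 19, and 9 rises without male cKO 8, female cKO 21 and female WT 25.

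Of 74 nuclear genes of oxidative phosphorylation, 72 had a higher estimate in cKO, yet the median log2 fold change was 0.10 and only Atp5b passed, with both sexes together (log2 0.15, edgeR adjusted p = 0.0497, kept in 4 of 22 fits with a library left out). The count was 4 without female WT 26, 3 without male cKO 8, 2 without male WT 5 or female WT 25 and 1 without male cKO 10. It was 0 without each other library, and 5 without male cKO 8, female cKO 21 and female WT 25 together. No gene of cholesterol synthesis passed in edgeR, although 21 of 23 had a higher estimate (median log2 0.20) and 10 had an unadjusted p under 0.05. DESeq2 called 3 of them, edgeR called 8 without male cKO 8, 3 without female WT 25, 2 without male WT 4 or 5, 1 without female cKO 23, 24 or 27, and 7 without male cKO 8, female cKO 21 and female WT 25. None of 76 cytosolic ribosomal protein genes passed in edgeR or DESeq2 (median log2 -0.05), and 1 had an unadjusted p under 0.05.

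**Figure D4:**
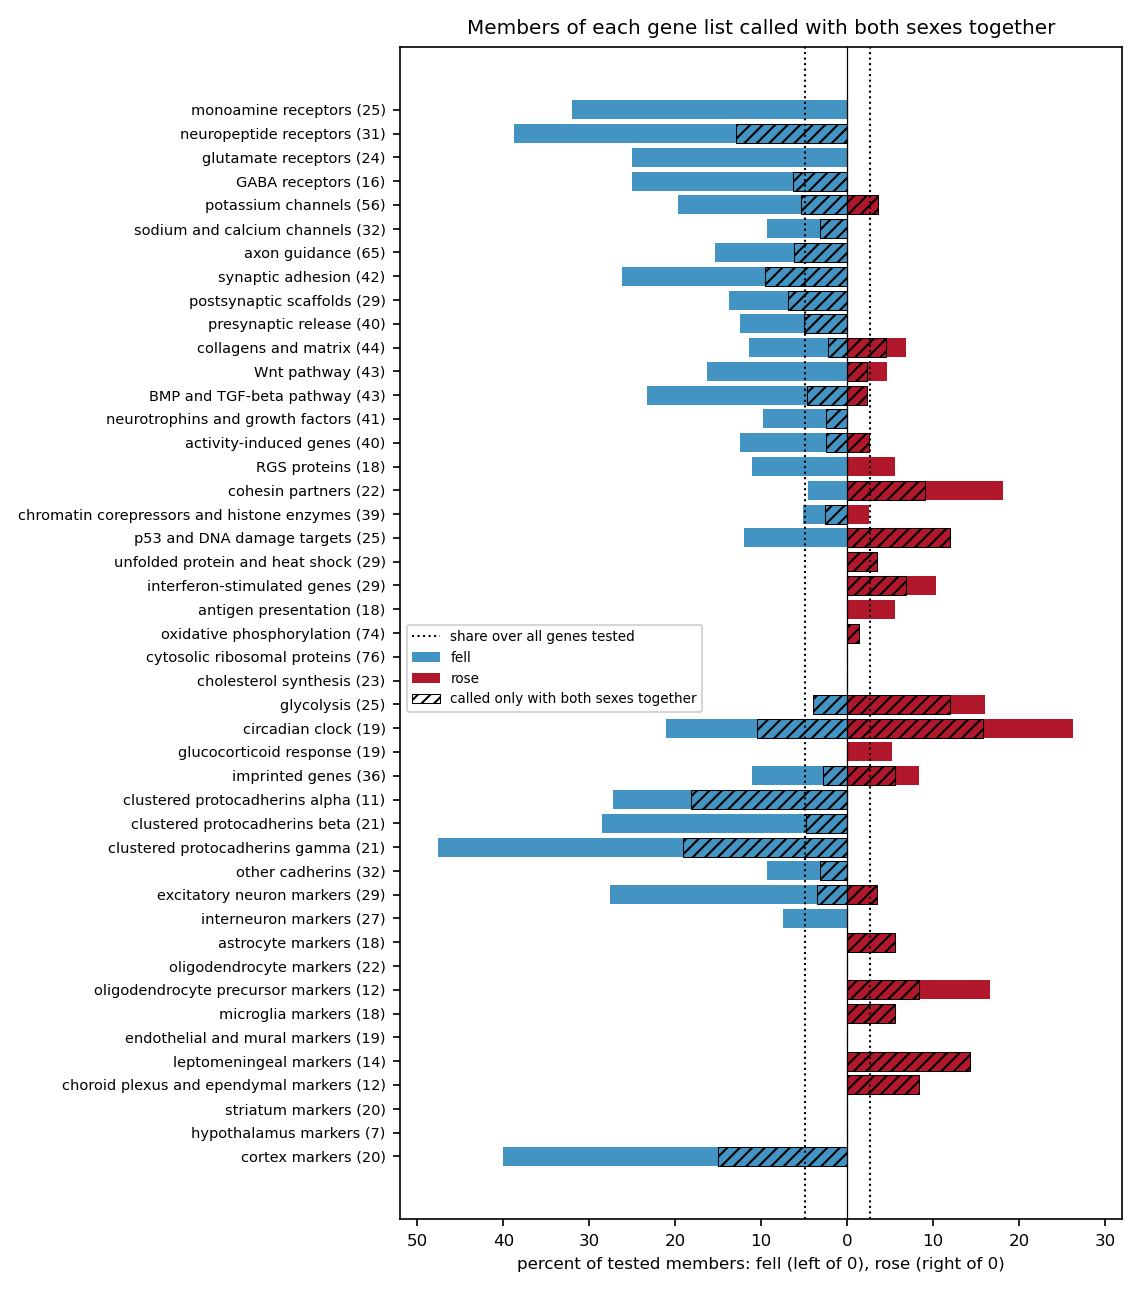
For each list, with the number of members tested in brackets, bars give the percent of members that fell (left of 0, blue) or rose (right of 0, red) in cKO with both sexes together, hatched where neither sex called the gene alone. Dotted lines mark 4.87% falling and 2.68% rising over all genes. The bar for gamma protocadherins reaches farthest to the left, followed by cortex markers and neuropeptide receptors, and that of the circadian clock farthest to the right.

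Markers of cell types and regions are given here because some of these lists, mainly those of excitatory neurons and cortex, had called members. Other marker lists had few calls or none. The part of these markers in the results above was not tested. Of 29 excitatory neuron markers, the cells in which Camk2a drives Cre, 8 fell, 1 rose and 20 did not pass (median log2 -0.25). The list's mean log2 CPM was 5.92, 6.26 and 6.42 (lowest, median and highest) in libraries labelled cKO, against 6.03, 6.49 and 6.80 in WT libraries. Calb1, a calcium buffer of upper-layer neurons, fell by 1.01 with no overlap and Lamp5 by 1.09. Slc17a6, a vesicular glutamate transporter, was called only together and rose (17.2, 24.5 and 48.0 CPM in cKO, 10.4, 16.1 and 25.02 CPM in WT, log2 0.61, edgeR adjusted p = 0.0185). The transcription factor Mef2c was called only together at -0.48 (adjusted p = 0.0466, kept in 8 of 22 fits with a library left out). The count was 5 without male WT 4, female cKO 21, female cKO 23, female WT 18 or female WT 25.

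Of 20 cortex markers, 8 fell and 12 did not pass (median log2 -0.41). Ccn3 had 34.2, 100.2 and 118 CPM in libraries labelled cKO, against 121, 217 and 290.5 CPM in WT libraries, with no overlap (log2 -1.31, edgeR adjusted p = 7.13e-05), and Lmo4 fell by 0.91. Nptx1, a neuronal pentraxin, was called only together (log2 -0.49, adjusted p = 0.0253, kept in 20 of 22 fits with a library left out). The list's mean log2 CPM ranged over 5.97 to 6.78 in cKO and 6.15 to 7.35 in WT. The count was 5 without male WT 3, female WT 18 or female WT 19, 4 without male WT 4, and 4 without male cKO 8, female cKO 21 and female WT 25. Of 27 interneuron markers, Vip and Cnr1 fell (log2 -0.96 and -0.46) and 25 did not pass (median log2 -0.03). The fit of females called 3 of them. The share called with both sexes together, 7.41%, was near the 7.55% over all genes.

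Glial markers had few calls. The share called was 5.56% for astrocyte and for microglia markers and 16.7% for oligodendrocyte precursor markers, against 7.55% over all genes. Of 18 astrocyte markers, Gfap alone rose and 17 did not pass (median log2 0.11, and 2 called without male cKO 8, male WT 1, male WT 6 or female WT 16), with a mean log2 CPM of 7.17 to 7.47 in libraries labelled cKO and 6.98 to 7.42 in WT libraries. Of 12 oligodendrocyte precursor markers, Gpr17 rose (log2 0.32), Bmp4 was called only together, and 10 did not pass (median log2 0.11). Leaving out any of 11 libraries left a single call in this list. Of 18 microglia markers, Ctss was called only together (log2 0.25, edgeR adjusted p = 0.0305, kept in 14 of 22 fits with a library left out) and 17 did not pass (median log2 0.13). None of 22 oligodendrocyte markers passed in edgeR or DESeq2 or had an unadjusted p under 0.05, although all 22 had a higher estimate (median log2 0.24, 0.41 in females and 0.10 in males), with a mean log2 CPM of 5.35, 6.90 and 7.85 in cKO and 5.06, 6.80 and 7.41 in WT.

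Of 14 leptomeningeal markers, Col1a1 and Col3a1 rose and 12 did not pass (median log2 0.35), with a mean log2 CPM of 1.98 to 4.40 in libraries labelled cKO and 1.95 to 3.45 in WT libraries, and 1 call was left without male WT 3, male WT 4 or female cKO 20. Of 12 choroid plexus and ependymal markers, all 12 had a higher estimate and only Ttr passed (median log2 0.37, 0.75 in females and -0.04 in males). That is 8.33% of the list, near the 7.55% over all genes. None of 19 endothelial and mural markers passed in edgeR or DESeq2, and 0 had an unadjusted p under 0.05 (median log2 -0.02). None of 20 striatum markers passed in edgeR or DESeq2, with 2 unadjusted p under 0.05 (median log2 -0.08). Their mean log2 CPM varied widely between libraries, over 2.84 to 5.44 in cKO and 3.16 to 5.06 in WT. None of 7 hypothalamus markers tested passed in edgeR with both sexes together, 1 passed in DESeq2 and 1 had an unadjusted p under 0.05 (median log2 0.06). The fit of females called 2 of them. With both sexes together in edgeR, 1 passed without male cKO 8, female cKO 23 or female WT 25, and 1 fell without male cKO 8, female cKO 21 and female WT 25.

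The count of genes called with both sexes together ran from 1042 without male WT 3 to 1666 without male cKO 8, and that of genes called only together from 581 to 1075 without the same libraries. Without male cKO 8, female cKO 21 and female WT 25 together, 1619 genes were called (677 rose and 942 fell), of which 1227 were called in neither sex alone. With the mean level of oligodendrocyte markers as a covariate, 1550 genes were called, among them 715 of the 765. Single-sex counts moved more, from 328 without female WT 19 to 674 without female WT 26 in females and from 19 without male cKO 12 to 186 without male cKO 8 in males.

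**Figure D5:**
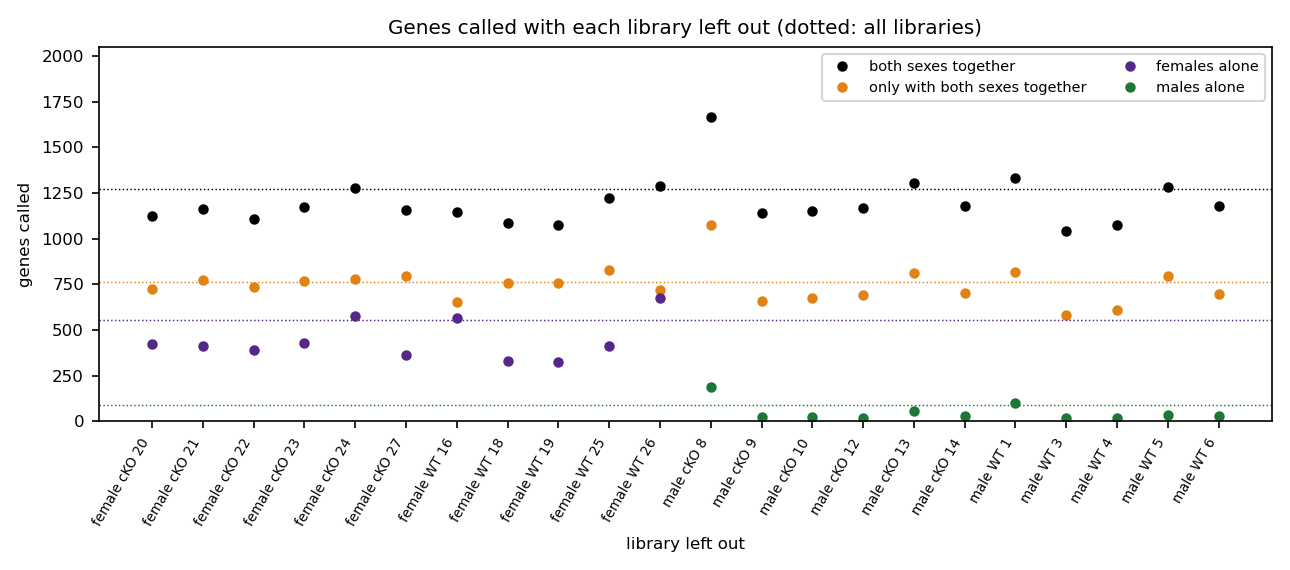
Number of genes called (vertical axis) with each library left out (horizontal axis) for the fit of both sexes together (black), genes called only together (orange), females alone (purple) and males alone (green), with dotted lines for all libraries. The point without male cKO 8 is the highest for the joint fit, at 1666 genes, and the male counts lie between 19 and 186.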

How the data were processed

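Bulk RNA was sequenced from 22 mice. The authors deposited a table per sex with whole-number counts of reads per gene for each library, together with a log2 ratio and the raw and adjusted p-value of their own test. The submitters' processing notes name cutadapt, STAR, HTSeq, DESeq2 and build GRCm39. Not given in the sources used here were versions, gene models and strandedness of counting. Counts are therefore uncertain for genes that overlap, lie antisense to each other or share exons within a family. The authors' 22 columns of normalized counts were not used. Of the genes, 22 have no name and kept their identifier. The column numbered 20 was used as a female cKO library from its name, because a title reads cKO2 with a hyphen.

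Genes were kept with filterByExpr over the 4 groups of sex and genotype (minimum count 10, minimum total 15), which left out at most 0.119% of a library's counts. After TMM scaling, the quasi-likelihood F test of edgeR 4.0.16 (in R 4.3.3 with limma 3.58.1) was run with sex and genotype as terms. Genes were called at a Benjamini-Hochberg adjusted p under 0.05. The same genes were fitted in each sex alone, and the difference between sexes (female minus male) was the interaction term. Genes called in the joint fit and in neither sex alone are those called only together. DESeq2 1.42.0, run by the re-analysis, was an alternative. Fold changes are cKO minus WT on the log2 scale, with a standard error equal to their size divided by the root of the F statistic. Levels are CPM relative to the TMM-scaled total, and mean log2 CPM of marker lists uses a prior count of 2. Only the cortex, hypothalamus and striatum marker levels set beside the sample titles use the unscaled total. The smallest chi-square per degree of freedom over 50 pairs of replicates was 6.04, so no pair agreed within sampling noise. Depth limits the precision of genes of low abundance. The p-values set each effect against the spread between these libraries that the terms of the fit leave. The procedure was tested on simulated data.

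The members and the 45 gene lists (1352 of 1383 entries found in the tables) were chosen with earlier results of these data known. Named genes are Smc3, the 6 largest rises and falls and the 12 rises and 12 falls called only together with the smallest p (mean CPM of at least 2, no predicted models), the 4 leading genes called in a single sex and not together, the 5 genes that led the test of the difference, and up to 3 called members of each list. List members called only together are named in addition, and were chosen after their values were seen. Some called list members are not reported here. Alternatives covered scaling, DESeq2, the low-count filter, the sex block, a fit of 4 groups, a marker covariate and each library left out. Leaving out the 3 libraries that stood apart was added after seeing the data.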

Additional observations from a re-analysis of the deposited data

Results flagged for a closer look

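In 13 of 216 groups of libraries, the highest or lowest library lay farther from its neighbour than Dixon's limit allows, and chance gives about 5% of groups. The values in brackets are that library's gap as a share of the group's range. Among cKO libraries, female cKO 21 was high for Ttr (526.5 CPM, next 6.49 CPM, gap 0.778), female cKO 27 was high for Smc3 (149.8 CPM, next 129 CPM, gap 0.747), and female cKO 20 was low for Wnt5a (4.07 CPM, next 6.04 CPM, gap 0.740). Male cKO 13 was high for Gfap (388 CPM, next 272 CPM, gap 0.639) and for Aspg (36.2 CPM, next 7.13 CPM, gap 0.646). Male cKO 8 was low for Rgs13 (2.37 CPM, next 4.94 CPM, gap 0.661) and for Sst (34.7 CPM, next 129.7 CPM, gap 0.780). Among WT libraries, female WT 25 was low for Gfap (88.2 CPM, next 168 CPM, gap 0.729) and for the mean log2 CPM of striatum markers (3.16, next 4.57, gap 0.743). Female WT 16 was high for Wnt5a (15.8 CPM, next 11.9 CPM, gap 0.752) and low for Hs3st4 (82.4 CPM, next 101 CPM, gap 0.883). Male WT 5 was high for Plscr3 (24.6 CPM, next 19.4 CPM, gap 0.783), and male WT 1 was low for Klf16 (61.2 CPM, next 71.8 CPM, gap 0.803). Ttr alone of the called genes in this group lost its call without the library named here.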

How the results depend on the processing

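No paired analysis was possible because no replicate number occurs in both the cKO and the WT group. Under the other scaling, filter, block and group settings the count of genes called with both sexes together stayed between 1117 and 1282, DESeq2 called 1667, and the marker covariate 1550. Of the 765 genes called only together, 755 were also called by DESeq2, 715 with the covariate and 582 without the 3 libraries that stood apart. The share of rises among calls was 35.5% and ranged from 32.5% to 41.8%. DESeq2 called 917 genes in females and 335 in males. Without male cKO 8, female cKO 21 and female WT 25, a choice made after seeing the data, 327 genes were called in females, 186 in males and 1227 only together. With each library left out in turn, the count was 1042 to 1666 for both sexes together, 581 to 1075 for only together, 328 to 674 in females and 19 to 186 in males. Counts moved by over 1.5 times without female cKO 27, WT 18 and WT 19, which gave 365, 333 and 328, and without each male library but WT 1, which gave 19 (cKO 12), 58 (cKO 13), 28 (cKO 14), 186 (cKO 8), 25 (cKO 9), 27 (cKO 10), 20 (WT 3), 20 (WT 4), 37 (WT 5) and 31 (WT 6). The cause was not tested. No gene passed the test of the difference between the sexes with other size factors, DESeq2, the other filters or libraries left out, the settings in which it was run. Of 127 named genes called together, 114 kept direction and call in all settings that gave a value, among 30, and none reversed. The 13 that lost the call at least once were Ttr, Blnk, Gm10710, Scn8a, Kdm6a, Ifit3b, Atp5b, Slc2a1, Pcdhac1, Pcdh8, Bmp4, Ctss and Col1a1. Of the 46 named genes called only together by the naming rule, 34 kept the call throughout. The smallest called change was 0.12 on the log2 scale, and depth limits what could be resolved for genes of low abundance.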
